A study of Mus musculus with 1111 samples.

Results

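Apoe encodes apolipoprotein E, the main lipid carrier protein of the brain. In the healthy brain it is made mostly by astrocytes. Microglia, the resident macrophages of the brain, make little of it at rest and are known to raise it when they turn to a disease-associated state. The secreted protein is loaded with cholesterol and phospholipid by membrane transporters and is taken up through receptors of the LDL receptor family and Trem2. Apoe was 1 of 35583 genes in the count tables (ENSMUSG00000002985, mm10, chromosome 7, 19696109 to 19699188, minus strand). The gene was chosen for its differences between these groups, so its levels, shares and ratios are given as description, with no test.

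The cells were single microglia sorted from the brains of 3-month-old mice 20 hours after an injection of plasma proteins carrying the far-red dye Atto647N. They had been sorted by the amount of dye inside the cell into 3 groups, labelled by plasma intensity as none, low and high (called here the none, low and high cells), and were processed with the plate-based Smart-seq2 method, which reads each well as 1 full-length library. All groups come from injected mice. The labels give no strain, sex or number of animals. Titles also carry a TH number (1 to 3) that the labels do not explain. Each TH number holds cells of all 3 groups, and it is used here only as 3 sets of wells, so an SD over them (n = 3) is not a spread between animals. Within each set, the none cells filled well columns 1 to 8, the low cells 9 to 16 and the high cells 17 to 23, so group and plate position cannot be told apart.

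Of 1045 cells matched to a column, 987 passed the filter of 50000 reads and 500 genes. Of these, 35.1% were none, 35.6% low and 29.4% (290 cells) high, with at least 93 cells in each set of 1 group and TH number. Median reads per cell ran from 175699 to 404743 over the 9 sets, and no 2 of the 987 cells had the same counts. Microglial markers were present throughout. P2ry12, a receptor that marks microglia, stood at 9304 ± 692 CPM (counts scaled to a common library size) in the none cells, 9331 ± 694 in the low cells and 8891 ± 547 in the high cells (SD, n = 3). Cx3cr1, the fractalkine receptor, stood at 7874 ± 782 CPM in the none cells, 7139 ± 330 in the low cells and 6944 ± 360.9 in the high cells. Of the astrocyte markers, Gja1 and Sox9 had no read, and the list summed to 224.2 to 383.1 CPM in the none cells and to 216.3 to 246.96 CPM in the high cells. Nearly all of that was Slc1a3, which microglia can also express. The border macrophage markers Pf4, Cd163, F13a1, Lyve1 and Ms4a7 had no read in any group. The sum of that list (134.8 to 185.9 CPM in the none cells, 102.8 to 226.3 CPM in the high cells) was nearly all Stab1, a scavenger receptor, which stood at 158.8, 132.6 and 143.6 CPM in the none, low and high cells and was read in 43.97% of cells, while Mrc1 and Cbr2 were read in 0.912% and 0.304%. The oligodendrocyte markers summed to 49.6 ± 25.1 CPM in the none cells and 74.1 ± 15.4 CPM in the high cells. Of these Mbp, a myelin protein gene read in too few cells to compare, had 19.9, 15.8 and 8.52 CPM in the none cells and 51.3, 66.1 and 16.54 CPM in the high cells, log2 ratios of 1.32, 2.00 and 0.88 (SD 0.56, n = 3 TH numbers), higher in 3 of 3. In the high cells of TH 2, Ttr of the choroid plexus stood at 408.9 CPM, all from 1 cell with no Apoe read, and the neuronal gene Snap25 at 55.3 CPM from 2 cells. The part of these markers in the results was not tested.

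Few cells carried Apoe, and the share of cells that did was higher in low than in none cells and higher again in high cells. Among the none cells, 8, 10 and 10 had at least 1 read of Apoe in TH 1, 2 and 3, which was 6.90%, 8.85% and 8.55% of the cells there. For the low cells the numbers were 20, 17 and 17 cells, or 16.9%, 14.5% and 14.7%. For the high cells they were 25, 27 and 27 cells, or 24.8%, 28.1% and 29.03%. The 3 groups did not overlap in this share. The 95% Clopper-Pearson intervals of the pooled shares, which cover counting error only, were 5.44% to 11.5%, 11.8% to 19.6% and 22.2% to 32.8%. The difference of the high cells from the none cells was 19.2 ± 1.32 percentage points, and that of the low cells from the none cells was 7.28 ± 2.41 points (SD over 3 TH numbers). The 2 comparisons share the none cells.

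Depth moved with the groups, with pooled median reads of 207429, 229931 and 267143 per cell. With every cell thinned to 50000 reads, the shares were 8.09%, 14.5% and 26.9% in the same order. The differences from the none cells were then 18.9 ± 1.84 points for the high cells and 6.42 ± 3.15 points for the low cells. A cell with any Apoe read usually had many: 85.7% of such cells had 50 or more reads, and only 3 cells had 1 to 4. No Apoe read was found in 826 of the 987 cells.

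**Figure D1:**
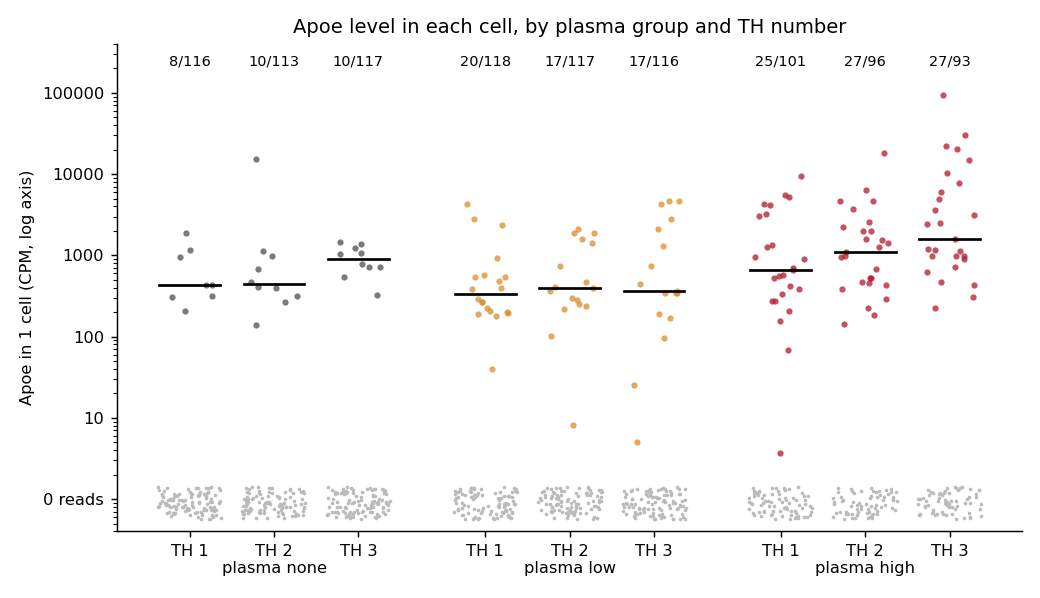
Apoe level in every cell that passed the filter, in CPM on a log axis, for each plasma group and TH number. Coloured points are cells with a read, black bars their medians, grey points cells with no read (spread vertically only to be visible), and the numbers on top give cells with a read of all cells. The count on top is higher in the low cells than in the none cells and higher still in the high cells, and the cells above 10000 CPM lie mostly in TH 3 of the high cells.

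Among the cells with a read, the level did not follow the same order as the share. The median level in those cells was 431, 441 and 910 CPM in the none cells (TH 1, 2 and 3), 337.96, 400.3 and 364.4 CPM in the low cells, and 653, 1110 and 1573 CPM in the high cells. The low group was below the none cells in 3 of 3 TH numbers, by a log2 ratio of -0.60 ± 0.63, a mean smaller than its SD. The high group was above the none cells in 3 of 3, by 0.91 ± 0.38. It was above the low cells in 3 of 3 as well, by 1.51 ± 0.58. The median in the none cells of TH 3, 910 CPM, lay above that in the high cells of TH 1, so the ranges of these 2 groups overlapped.

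The low cells stood further from the none cells in cells with any read than in cells of higher level. Counting only cells at 300 CPM or more, the share was 6.03%, 7.08% and 8.55% in the none cells, and 8.47%, 8.55% and 10.3% in the low cells. The difference was 1.90 ± 0.49 points, against 7.28 ± 2.41 points for any read, and the 2 groups met at 8.55%. In the high cells the share at 300 CPM or more was 18.8%, 23.96% and 27.96%, above every value of the other groups. At 1000 CPM or more, there were 9 none cells (2.60%), 14 low cells (3.99%) and 40 high cells (13.8%). At 10000 CPM or more there were 1, 0 and 7 cells.

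**Figure D2:**
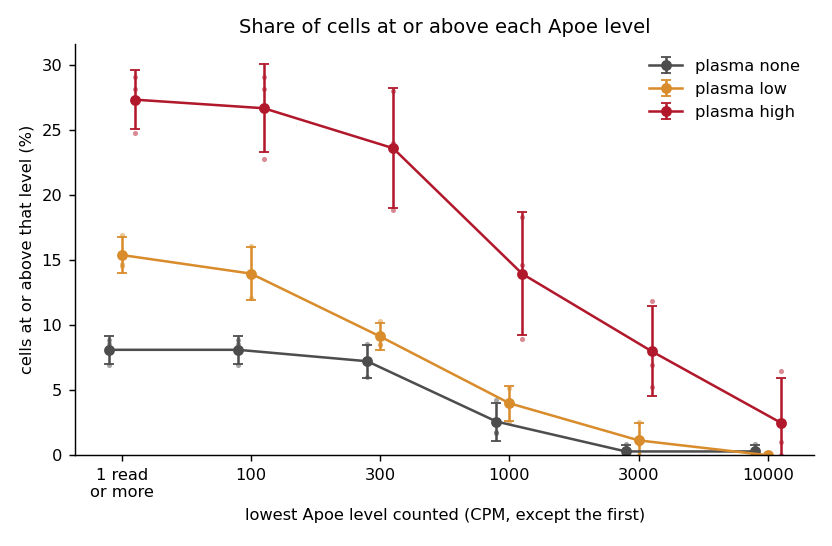
Percent of cells at or above each Apoe level, from any read to 10000 CPM, for the 3 plasma groups. Large points and bars are the mean and SD over 3 TH numbers, and small points are the single TH numbers. The low cells and the none cells are apart at any read (15.4% and 8.10%) and close at 1000 CPM, while the high cells stay above both.

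With reads summed over the cells of each set and scaled by TMM, Apoe stood at 54.8, 180 and 63.2 CPM in the none cells (TH 1, 2 and 3). In the low cells it stood at 144.2, 115.2 and 186.6 CPM, and in the high cells at 640, 602 and 2346 CPM. Every sum of high cells lay above every sum of the other groups, while the none cells and the low cells overlapped through TH 2. The log2 ratio of the high cells to the none cells was 3.52, 1.73 and 5.19 in the 3 TH numbers, a mean of 3.48 ± 1.73. That of the high cells to the low cells was 2.14, 2.38 and 3.65, a mean of 2.72 ± 0.81. That of the low cells to the none cells was 1.38, -0.64 and 1.55, a mean of 0.76 ± 1.22, smaller than its SD. Its value was 0.37 without TH 3, 0.45 without TH 1 and 1.46 without TH 2, and 1.23 with the top Apoe cell of each sum left out.

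A ratio was said to meet the size rule when its mean was at least 1 in size on the log2 scale and it had 1 sign in 3 of 3 TH numbers. Apoe met it for the high cells against the none cells, as did 5.15% of 5534 genes. It met it for the high cells against the low cells, as did 3.28% of 5709 genes. It did not meet it for the low cells against the none cells, where 2.64% of 5489 genes did. By the size of the mean ratio Apoe ranked 2 from the top for the high cells against the none cells, after St8sia6, 1 for the high cells against the low cells, and outside the top 5% (at 5.37%) for the low cells against the none cells. Since the gene was chosen on these contrasts, nothing further is read from the ranks.

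The mean level per cell is the product of the share of cells with a read and the mean level in those cells, and both terms could be followed over the TH numbers. For the high cells against the none cells, the share contributed a log2 ratio of 1.84, 1.67 and 1.76 (mean 1.76 ± 0.088, or 3.38-fold). The mean level in cells with a read contributed 1.32, 0.13 and 3.22 (mean 1.56 ± 1.56). The first term was nearly the same in the 3 TH numbers, and the second varied with the whole ratio. For the low cells against the none cells, the share contributed 0.93 ± 0.32 and the level -0.26 ± 1.04. For the high cells against the low cells, the share contributed 0.83 ± 0.24 and the level 1.82 ± 0.77.

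Single cells held much of the Apoe signal. The cell with the most Apoe reads held 71.2% of the Apoe reads of the none cells in TH 2, at 15381 CPM, while no other none cell passed 1912 CPM. In the high cells of TH 3, the cell with the highest level had 93391 CPM, or 9.34% of all its reads, and Apoe was its most abundant gene. That cell had 8631 CPM of P2ry12, 2427 CPM of Tmem119 and 6850 CPM of Cx3cr1, and reads of none of the astrocyte or border macrophage markers. All 8 cells above 10000 CPM had 6 or more of the 8 microglial markers listed for the check of cell type. Over each whole group, 50% of the Apoe reads lay in 2 of the none cells, 8 of the low cells and 4 of the high cells.

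Of the 7 high cells at 10000 CPM or more, 6 were of TH 3, and 4 of these were in well column 20 (rows B, D, I and J). The 13 cells of that column held 74.8% of the Apoe reads of the high cells in TH 3. In TH 1 and 2 the same column held 13.5% and 5.36%. Without column 20 of TH 3, a choice made after seeing the data, the log2 ratio of the high cells to the none cells was 2.89 and the difference in share of cells with a read was 17.9 points. The part of well position in these levels was not tested. By well column, the share of cells with a read ran from 4.26% to 14.3% in the none cells, 13.04% to 18.2% in the low cells and 17.5% to 33.3% in the high cells.

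**Figure D3:**
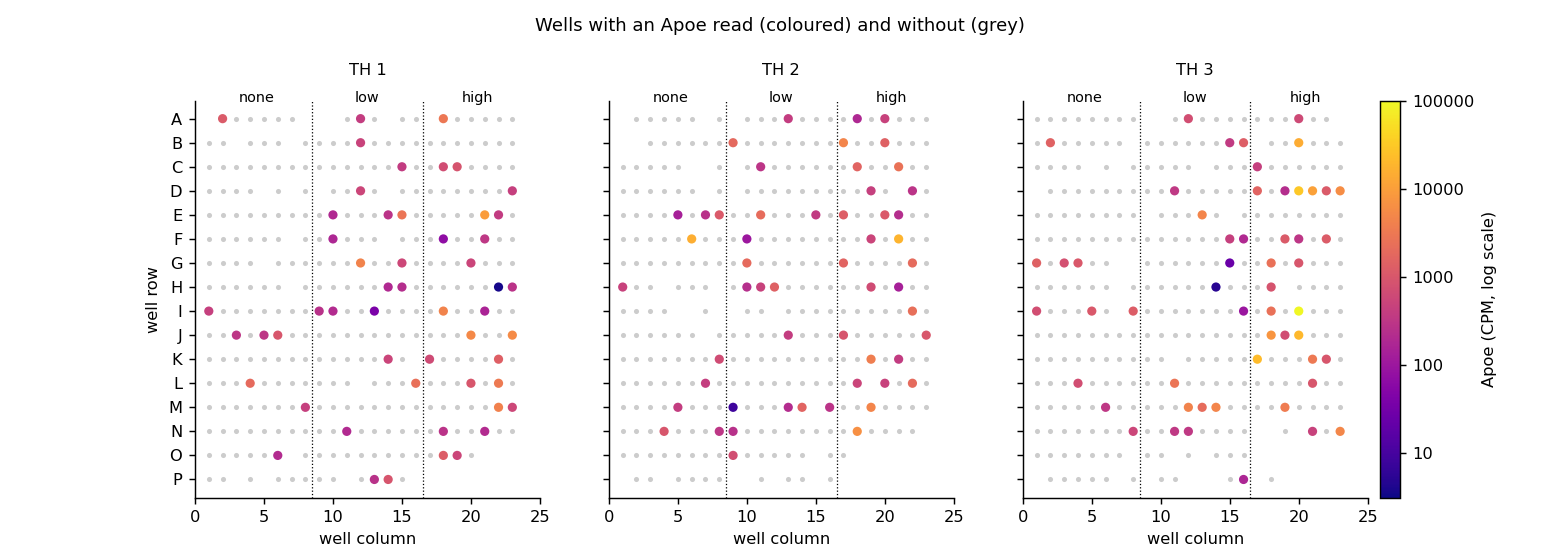
Position of every cell that passed the filter by well row and column, 1 panel per TH number, with dotted lines between the plasma groups. Grey wells had no Apoe read and coloured wells had one, with the CPM on a log colour scale. Wells with a read are spread over the rows of each group, and the brightest wells of TH 3 gather in column 20.

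Apoe was spread more unevenly between cells than most genes of like abundance. The comparison is on CPM, not per transcript length, with genes whose mean cell level lay within 1.5-fold of that of Apoe in the same group. In the high cells, 27.2% of cells had Apoe, and the median over 83 such genes was 86.9%, with 0 of them below Apoe. The coefficient of variation (CV) between cells was 5.37 for Apoe and 0.95 in the median of those genes. In the low cells the share was 15.4% against a median of 31.1% over 1226 genes, 40 of which were lower, and the CV was 4.07 against 2.36. In the none cells the share was 8.09% against 20.52% over 1668 genes, 33 of which were lower, and the CV was 8.43 against 2.94. Within TH 1, 2 and 3 the CV of Apoe in the none cells was 4.72, 8.14 and 3.53. It was highest in TH 2, where 1 cell held 71.2% of the Apoe reads. Within single sets the contrast was weaker in 3 of 9: the CV of Apoe was exceeded by that of 17.2% of like-abundance genes in the none cells of TH 1, of 36.5% in those of TH 3 and of 21.8% in the low cells of TH 2.

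Across cells, Lyz2, which encodes lysozyme of macrophages, was the gene most correlated with Apoe. Pearson's r of log2(CPM + 1) was taken within each of the 9 sets and averaged, over 5182 genes. The values are descriptive, since cells of a set share library preparation and differ in depth, and nearly all were close to 0: the median was 0.0033 and 99.3% of genes were under 0.1 in size. Lyz2 had a mean r of 0.25 and was positive in 9 of 9 sets. Its mean r was 0.14 in the none cells, 0.25 in the low cells and 0.35 in the high cells. Reads of Lyz2 may include reads of its near-identical neighbour Lyz1, depending on how multiply aligned reads were counted.

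Lyz2 and Apoe were often read in the same cells. Both were found in 16 of the none cells, 37 of the low cells and 66 of the high cells. These made up 57.1%, 68.5% and 83.5% of the Apoe cells, and 14.4%, 23.1% and 38.8% of the Lyz2 cells. Lyz2 itself was read in 32.1%, 45.6% and 58.6% of all cells of the groups. Most Apoe cells thus had Lyz2, whereas most Lyz2 cells had no Apoe read in any group.

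The next genes by mean r were Cd63, a tetraspanin of late endosomes (0.16, positive in 8 of 9 sets), Ctss, which encodes the lysosomal protease cathepsin S (0.14, 9 of 9), and Fth1, the ferritin heavy chain that stores iron (0.14, 8 of 9). They were followed by Degs1, a desaturase of ceramide synthesis (0.14), Uba2, a subunit of the SUMO-activating enzyme (0.13), Ctsb, which encodes cathepsin B (0.12), and P4ha1, a collagen prolyl hydroxylase subunit (0.12). Within cells that had an Apoe read, Uba2 and P4ha1 changed sign, to -0.096 and -0.018. Ctss was read in 100% of cells, so its r reflects level and not presence. Cd63, Ctss, Fth1 and Ctsb had mean r values in the high cells of 0.28, 0.24, 0.23 and 0.25. In the none cells the values were 0.04, 0.10, 0.05 and -0.02. The difference in r between groups was not tested, and the none cells had only 8 to 10 Apoe cells per set.

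At the other end stood P2ry12, the purinergic receptor that marks homeostatic microglia. Its mean r was -0.14, positive in 1 of 9 sets, with -0.05 in the none cells, -0.15 in the low cells and -0.23 in the high cells. Selplg, the P-selectin ligand and also a homeostatic microglial gene, had -0.11. Adrb1, the beta-1 adrenergic receptor, had -0.11 and was negative in 9 of 9 sets. Btg2, an anti-proliferative early response gene, and Cd164, a sialomucin, each had -0.10. Without TH 3, Selplg and Cd164 each had a mean r of -0.067. P2ry12 was read in 984 of the 987 cells, and the 3 cells without it were all Apoe cells. Over the cells with a P2ry12 read, a choice made after seeing the data, its mean r was -0.10.

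**Figure D4:**
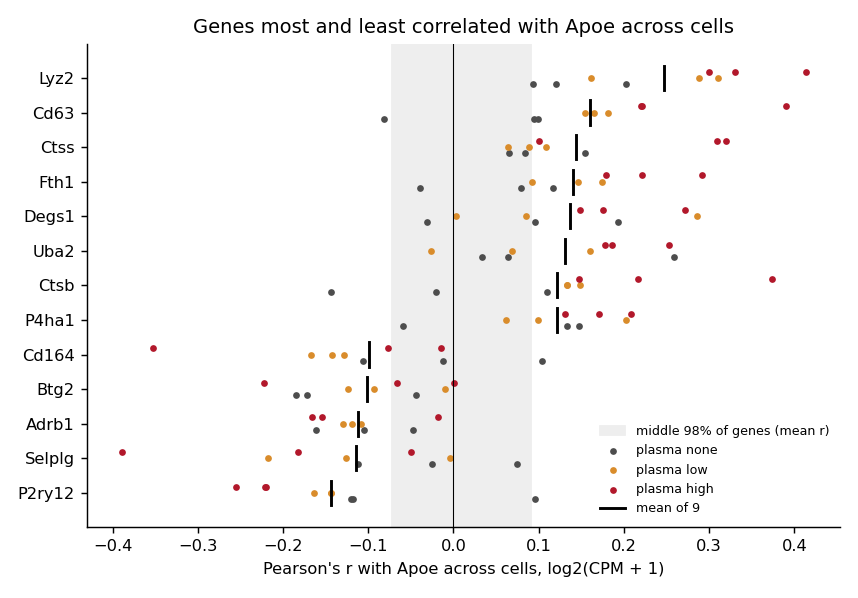
Pearson's r with Apoe across cells, of log2(CPM + 1), for the 8 genes with the highest and the 5 with the lowest mean. Points are the 9 sets of group and TH number, coloured by plasma group, black bars are means of 9, and the shaded band runs from the 1st to the 99th percentile of the mean r of 5182 genes (-0.072 to 0.091). The points of the high cells for Lyz2 lie furthest right, and their points for P2ry12 all lie left of 0.

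The r of depth, quality and marker sums with Apoe was taken in the same way, and their part in the results was not tested. Mean r was 0.027 for log10 reads, with a range over the 9 sets from -0.13 to 0.13. It was 0.058 for genes with a read, 0.091 for the mitochondrial percent and 0.11 for the percent of reads in ribosomal protein genes, which was positive in 8 of 9 sets and lay above the 99th percentile of single genes (0.091). The summed microglial markers had a mean r of -0.079, the astrocyte markers 0.046, the border macrophage markers -0.081 and the oligodendrocyte markers 0.010. The red cell markers had 0.10 (from -0.078 to 0.31 over the 7 sets with reads of them) and the monocyte markers 0.060 (from -0.063 to 0.37 over 6 sets). With reads and gene number partialled out, Lyz2 had a mean r of 0.24 and P2ry12 of -0.14.

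Among the receptors and uptake proteins of apolipoprotein E, the log2 ratios of the high cells to the none cells lay between -0.23 and 0.24. Of 11 listed, 4 were abundant enough to compare, and 2 of these were higher in the high cells in 3 of 3 TH numbers and 0 lower. Over all 5534 genes compared, 18.8% were higher and 13.8% lower in 3 of 3. The median log2 ratio of the 4 was 0.087, beside 0.054 for all genes. Lrp1, the large endocytic receptor, had 186.7 ± 32.8 CPM in the none cells and 218.8 ± 33.8 CPM in the high cells, a log2 ratio of 0.23 ± 0.05. Lrpap1, its chaperone, had a log2 ratio of 0.24 ± 0.08. Trem2, the lipid-sensing receptor of microglia, had 1096 CPM in the none cells and 1063 in the high cells, a ratio of -0.06 ± 0.22. Scarb1, the HDL receptor, had -0.23 ± 0.64, and Sorl1, a sorting receptor read in too few cells to compare, had -0.70 ± 2.35.

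Of the 11 genes for loading, exporting and storing lipid, 7 could be compared, 5 were higher in 3 of 3 and 1 lower, with a median log2 ratio of 0.56. Soat1, which esterifies cholesterol for storage, had 112.5, 69.1 and 134.8 CPM in the none cells and 191.2, 159.1 and 160.8 CPM in the high cells. Its log2 ratio was 0.73 ± 0.47. Abca1, the transporter that lipidates apolipoprotein E, had 70.8, 117.004 and 104.9 CPM in the none cells and 119.99, 213.8 and 126.2 CPM in the high cells. Its log2 ratio was 0.63 ± 0.32. Npc2 and Npc1, which move cholesterol out of lysosomes, had log2 ratios of 0.56 ± 0.18 and 0.54 ± 0.58. Abcg1, the other sterol exporter, went the other way, with 1268 CPM in the none cells and 943 in the high cells and a ratio of -0.48 ± 0.54. Lipa, the lysosomal acid lipase, had a ratio of 0.08 ± 0.66. Abca7, also a transporter but read in too few cells to compare, had 8.28 CPM in the none cells and 1.92 CPM in the high cells. It was lower in 3 of 3, with a log2 ratio of -1.82 ± 0.67 that depends on the pseudocount. Pltp and Plin2, which also could not be compared, had mixed signs.

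Lpl, the lipoprotein lipase, met the size rule with a log2 ratio of 3.00 ± 2.92, but its values were sparse. It had 0, 26.01 and 46.3 CPM in the none cells and 72.2, 134.2 and 64.6 CPM in the high cells. The ratio in TH 1 was taken against 0 reads and depends on the pseudocount. In the high cells it was read in 13, 16 and 11 cells, and in the none cells in 0, 5 and 11. It reached the minimum share of cells for comparison only in the high cells. Lpl is counted among the higher genes of this list and of the late disease-associated list below.

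The other apolipoproteins were hardly read. Of 10 listed, Apoc1, Apoc3, Apoc4, Apoa1, Apob and Apom had no read, and none of the other 4 (Apoc2, Apoa2, Apod and Clu) was read in more than 0.203% of cells. Of the 14 regulators, 9 could be compared, with 1 higher in 3 of 3, 1 lower and a median log2 ratio of 0.13. The lower one was Mylip, whose ubiquitin ligase degrades the LDL receptor. It had 1182, 1259 and 1149 CPM in the none cells, 797, 1279 and 773 CPM in the low cells and 589, 766 and 759 CPM in the high cells. The log2 ratio of the high cells to the none cells was -0.77 ± 0.21. The higher one was Rxrb, a nuclear receptor partner, at 0.97 ± 1.21. Nr1h2, the liver X receptor beta, had 0.17 ± 0.68, and Spi1, a macrophage transcription factor, had -0.07 ± 0.13.

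**Figure D5:**
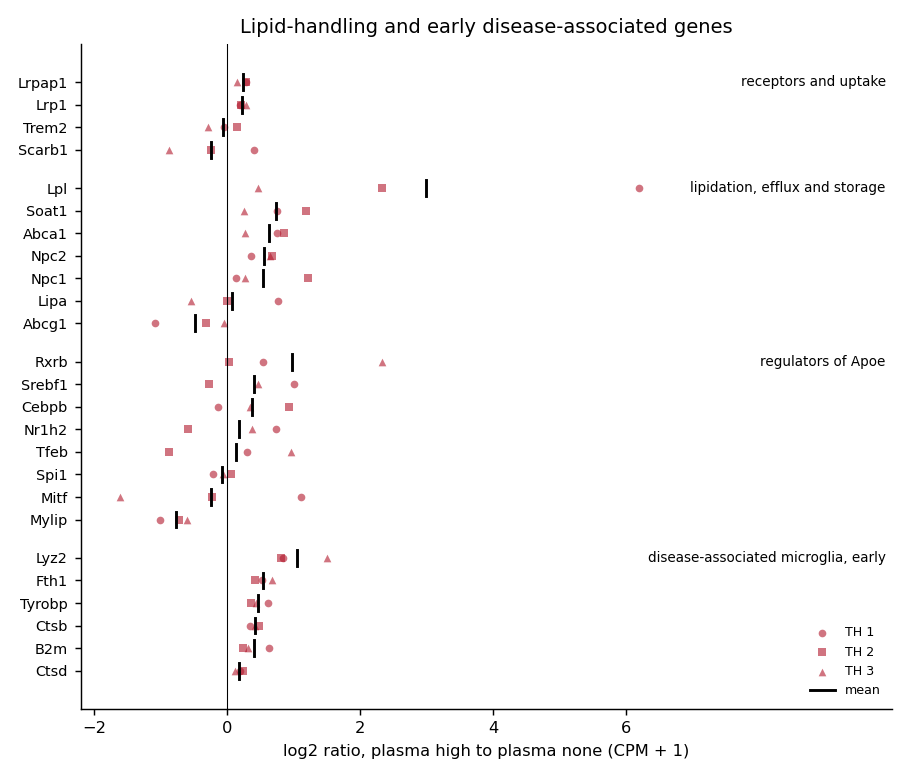
Log2 ratio of the high cells to the none cells (CPM + 1) for members of 4 gene lists that were abundant enough to compare, 1 regulator left out. Symbols are TH 1, 2 and 3, and black bars are means. The receptors lie close to 0, most lipid-handling genes lie to the right except Abcg1 (left) and Lipa (near 0), Mylip lies left in every TH number, and all 6 early disease-associated genes lie right.

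The disease-associated microglial state is one in which Apoe is known to be raised, and its early and late gene sets were followed beside it. All 6 early genes were higher in the high cells in 3 of 3 TH numbers, with a median log2 ratio of 0.44. Of all 5534 genes compared, 18.8% were higher and 13.8% lower in 3 of 3. The lists were chosen with earlier results of these data known, so the 6 of 6 is description. Lyz2 had 302.1, 236.6 and 195.7 CPM in the none cells and 542.9, 415.4 and 557.6 CPM in the high cells. Its log2 ratio of 1.05 ± 0.39 met the size rule. The others were Fth1 (0.54 ± 0.13), Tyrobp, the Trem2 adaptor (0.47 ± 0.13), Ctsb (0.42 ± 0.07), B2m (0.40 ± 0.21) and Ctsd (0.19 ± 0.06). All 6 also had a positive mean r with Apoe across cells, with a median of 0.12, where 2774 of 5182 genes had a positive one.

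Of the 17 late genes, Clec7a had no entry of that symbol in the count tables, and 8 could be compared. Of these 8, 5 were higher in 3 of 3 and 0 lower, beside 18.8% and 13.8% of all genes compared. The median log2 ratio was 0.32. Cd52, a small surface glycoprotein, had 61.4, 37.5 and 55.5 CPM in the none cells and 168.2, 81.3 and 81.95 CPM in the high cells. It met the size rule at 1.03 ± 0.45. Spp1 and Gpnmb, secreted and membrane proteins of the late state, had no read in any cell. Cst7, Itgax and Lgals3 were read in 2.53%, 1.62% and 0.811% of cells. Of the late genes read in too few cells to compare, Axl, Lilrb4a and Cst7 were higher in 3 of 3. The log2 ratios were 2.64 ± 1.14, 2.62 ± 1.77 and 2.39 ± 0.87 and depend on the pseudocount. Axl, a receptor kinase, had 6.88 CPM in the none cells and 39.3 CPM in the high cells. Csf1, Itgax and Lgals3, also read in too few cells, did not have 1 sign in 3 of 3. Trem2 had the lowest ratio of the 8, given above. The late genes with an r value, 7 in all, were all positive, with a median of 0.064.

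Of 14 homeostatic genes, 6 were lower in the high cells in 3 of 3 and 1 higher, beside 13.8% and 18.8% of all genes compared. The median log2 ratio was -0.07. Tmem119, a surface marker of microglia, had 4844 CPM in the none cells, 4199 in the low cells and 3576 in the high cells, a ratio of -0.44 ± 0.15. Csf1r, the survival receptor, was the higher one at 0.31 ± 0.08. P2ry12, which had the lowest r with Apoe, differed little between the groups, with a ratio of -0.06 ± 0.05. Over the 14 genes the median r with Apoe was -0.040, and 3 were positive.

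None of the genes next to Apoe met the size rule. The tables hold 15 other genes within 100 kb. Of these, 3 could be compared, and 0 had 1 sign in 3 of 3 TH numbers. Tomm40, the mitochondrial import pore gene beside Apoe, had a log2 ratio of -0.76 ± 0.87, Nectin2, an adhesion molecule, 0.88 ± 1.56, and Clptm1, a transmembrane protein, 0.04 ± 0.25. Relb, an NF-kB subunit read in too few cells to compare, had -0.85 ± 1.53. Bcam and Cblc had no read.

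Over the 9 sums, the genes whose log2 level was most like that of Apoe were Trpc4ap (r = 0.93), Gnai3 (0.93), Cmpk1 (0.92), Pald1 (0.90) and Dcaf11 (0.90), of 5760 genes. The 9 sums share TH numbers and groups, so these values have no p. The likeness was in the pattern of log2 level, which r measures, and not in the size of the change. Cmpk1 ran from 25.9 CPM in the none cells of TH 3 to 213.1 CPM in the high cells of TH 3. Trpc4ap ran from 121.9 to 222.5 CPM in the same sums, where Apoe ran from 63.2 to 2346 CPM.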

How the data were processed

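Microglia were profiled with Smart-seq2. Per the submitters' processing notes, reads were handled with bcl2fastq, Trim Galore, STAR 2.5.3a and Seurat on mm10. The counting program and its use of strand are not given in the sources used here. Values are the deposited raw read counts per gene, in 1 table per TH number. Per the file headers, the TH 2 and 3 columns come from alignments reduced to top hits, and TH 1 carries no such note. For 1 cell the deposited values are expected counts with 2 values that were not whole, which were rounded. The 1045 deposited SD columns were not used. Of 1111 labelled cells 1045 were matched by title, and 66 were not analysed here.

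Cells with at least 50000 reads and 500 genes were kept. No doublet caller was run. Reads were summed per group and TH number into 9 sums, scaled by TMM (edgeR 4.0.16, R 4.3.3) to CPM, and log2 ratios with a pseudocount of 1 CPM were taken within each TH number and averaged. Genes were compared when they averaged 20 CPM or more and were read in 10% or more of either group. Genes for r had the same minimums over all cells. No label names an animal, so each group is 1 sample and no test was run. Calculations were checked on simulated data. Genes were named by rule: Apoe, the 8 highest and 5 lowest in r across cells, the 5 most alike over the 9 sums (predicted and clone-named genes left out), list members of at least 20 CPM including the largest rise and fall, and genes within 100 kb. Members under 20 CPM, and marker genes, were named after their values were seen. Members and lists were chosen with earlier results of these data known. Alternatives were other scalings (DESeq2 1.42.0 size factors among them), pseudocounts, cell filters, read minimums, thinning, and leaving out TH numbers, wells or cells. Some list members are not reported here by name.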

Additional observations from a re-analysis of the deposited data

Results flagged for a closer look

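Wells that failed the cell filter, which enter no comparison above, held some of the highest Apoe levels. Of the 14 such wells of the high group, 4 had an Apoe read, against 1 of 24 of the none group and 0 of 20 of the low group (95% Clopper-Pearson upper limit 16.8%). The highest, in the high group of TH 2 (row O, column 18), had 147824 CPM: 24010 of its 162423 reads were Apoe, and it failed only for having 492 genes. It had reads of 6 of the 8 microglial markers. The others of the high group had 62996, 9471 and 6782 CPM, from 11461, 10664 and 2654 reads. The well of the none group had 456 CPM. With all matched cells kept, the log2 ratio of the high cells to the none cells was 3.81 and the difference in share of cells with a read 19.6 points.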

How the results depend on the processing

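Of the values recomputed under other settings, 92.5% moved by less than a set limit, 17 moved by more and 2 changed sign. The limit was the spread over TH numbers, or, for gene counts, 1.5-fold. For mean r it was the spread over all sets of group and TH number, which includes differences between groups. Leaving out 1 TH number gave a log2 ratio of the high cells to the none cells from 2.63 (without TH 3) to 4.36 (without TH 2), of the low cells to the none cells from 0.37 to 1.46, and of the high cells to the low cells from 2.26 to 3.01. The ratios pair the groups within TH numbers; with no replicate block, as ratios of group means, the 3 ratios were 3.57, 0.57 (low to none) and 3.00 (high to low). At 100 CPM or more, the share of low cells was 13.9%. Without well column 20 of TH 3, chosen after seeing the data, the difference in share between the high cells and the none cells was 17.9 points. The CV in the high cells, taken within each TH number and averaged, was 3.59, and 2.99 without the top Apoe cell of each set. Within cells that had an Apoe read, the mean r was -0.096 for Uba2 and -0.018 for P4ha1, against positive values over all cells, and it was -0.34 for Cd164 and -0.24 for Adrb1, against -0.10 and -0.11; the cause was not tested. Genes meeting the size rule, as a percent of all 35583, were 0.801% for high against none, 0.407% for low against none and 0.526% for high against low. They were 4.03%, 3.14% and 3.297% with no filter on low values, and 1.26% to 1.69%, 0.846% to 1.06% and 1.096% to 1.24% with 1 TH number left out, where 1 sign in 2 of 2 sufficed. Only 28 none cells had an Apoe read, which limits every level and r given for that group.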
